A study of Mus musculus with 12 samples.

Results

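Antigen presentation by major histocompatibility complex (MHC) class II was examined through 7 genes, H2-Aa, H2-Ab1, H2-Eb1, Cd74, Ciita, H2-DMa and H2-DMb1, which were taken by symbol from the 39756 genes of the deposited count table. All 7 were among the 17558 genes that held enough counts to be tested. Poly(A) RNA had been sequenced from brain, the ischemic hemisphere, of 12 male C57BL/6J mice that were 9 to 10 weeks old in the study's methods, with 4 mice per group. Sham mice underwent sham surgery and received saline. Vehicle mice received saline and had tMCAO, a transient occlusion of the middle cerebral artery by a filament that stays in place for 45 min in the methods and is then pulled back. LJP mice underwent the same surgery and received Laminaria japonica polysaccharide (LJP), a seaweed polysaccharide given into the stomach once a day, starting 14 days before surgery. Of the doses tried, 200 mg/kg was kept for experiments after the dose comparison, and several other assays were done 72 h after surgery, but the dose and the time are not given for the sequenced mice themselves in the sources used here. All mice carry the label of a single batch. Whole hemispheres were sequenced, so more cells of a type and more RNA per cell cannot be told apart in any value.

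MHC class II molecules display peptides from ingested material to CD4+ T cells. In the brain they are made mainly by microglia, by macrophages of the borders and vessels, and by blood-derived myeloid cells and B cells, and their level in resting microglia is low. H2-Aa and H2-Ab1 encode the alpha and beta chains of I-A, the class II molecule of C57BL/6 mice, and H2-Eb1 encodes the beta chain of I-E. Cd74 encodes the invariant chain, which fills the binding groove during assembly and guides the complex to endosomes. H2-DMa and H2-DMb1 encode chains of H2-DM, which exchanges the last fragment of the invariant chain for a peptide. Ciita encodes the coactivator that switches these genes on. It does not bind DNA itself but docks on factors that sit on the X and Y boxes of class II promoters.

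Promoter sequences are shown first because class II genes are known for this layout of boxes. They were copied from RefSeq windows of build GRCm38.p6 that run from 250 bases before to 50 bases after each gene start. The positions of all 7 members in the deposited table equal those of that build. Capitals mark the letters AAC, which are part of the X box, and TGATTGG, a form of the Y box that holds the reverse complement of CCAAT. Each stretch reads in the direction of its gene on chromosome 17, and H2-DMb2, H2-Oa and H2-Ob are class II genes that were not among the 7.
H2-Aa (chr17:34287852-34287917, minus strand): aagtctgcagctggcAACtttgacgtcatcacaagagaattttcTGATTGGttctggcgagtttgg
H2-Eb1 (chr17:34305763-34305827, plus strand): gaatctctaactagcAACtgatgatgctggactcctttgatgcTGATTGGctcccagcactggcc
H2-DMb1 (chr17:34153084-34153149, plus strand): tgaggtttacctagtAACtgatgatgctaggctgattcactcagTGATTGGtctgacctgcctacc
H2-DMb2 (chr17:34145113-34145178, plus strand): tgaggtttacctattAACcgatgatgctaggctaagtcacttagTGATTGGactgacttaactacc
H2-Oa (chr17:34092290-34092355, plus strand): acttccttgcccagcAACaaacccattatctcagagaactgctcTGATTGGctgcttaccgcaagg
H2-Ob (chr17:34238805-34238867, plus strand): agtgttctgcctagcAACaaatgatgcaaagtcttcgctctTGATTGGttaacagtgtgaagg

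In these stretches 23 to 26 bases lay between AAC and TGATTGG, and the Y box began 45 to 92 bases before the gene start. TGATTGG was found on either strand in 2568 of the 32851 windows of this kind (7.82%). AAC followed on the same strand, after 20 to 32 bases, by TGATTGG was found in 394 windows (1.2%). The letters and the spacing were chosen with these promoters in view, so the matches are a description. Neither of the 2 windows given for H2-DMa held TGATTGG, and H2-Ab1, Cd74 and Ciita had no window. H2-DMb1 and H2-DMb2 are neighbouring, similar genes whose sequences resemble each other beyond the boxes. Of the 50-base windows of the longest H2-DMb1 transcript in GENCODE M21, 27.2% occurred unchanged in H2-DMb2.

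Class II transcripts were rare in sham-operated brain. Levels are given as CPM, counts scaled to normalized library sizes, and a comparison between genes uses CPM per kilobase of the gene model in the table. Total counts per mouse ranged from 17960353 to 22216315, and 3 counts, taken as the most that an observed 0 allows, corresponded to 0.129 to 0.173 CPM. Vehicle mice 1 and 2 stood apart over all genes, as the chi-square between the counts of 2 libraries, divided by its degrees of freedom, was 45.2 to 122 for every pair of Vehicle mice with either of them and 4.44 for Vehicle mice 3 and 4. In the Sham group the order per kilobase was Cd74 (3.10 ± 0.239 CPM per kilobase, SD, n = 4), H2-DMa (1.74 ± 0.0872), H2-Ab1 (1.51 ± 0.406), Ciita (1.15 ± 0.155), H2-Eb1 (1.14 ± 0.178), H2-Aa (0.914 ± 0.234) and H2-DMb1 (0.667 ± 0.288). The 4 Sham mice separated Cd74 from H2-DMa, while each later neighbour in the order overlapped the next. In the Vehicle group the order was Cd74 (8.53 ± 4.46 CPM per kilobase), H2-Ab1 (6.90 ± 3.81), H2-DMb1 (3.75 ± 1.24), H2-Aa (3.64 ± 1.80), H2-Eb1 (2.77 ± 1.54), H2-DMa (2.05 ± 0.242) and Ciita (1.11 ± 0.0826), and the only neighbours that did not overlap were H2-DMa and Ciita. In the LJP group the order was Cd74 (5.19 ± 3.22), H2-Ab1 (3.50 ± 2.03), H2-DMb1 (2.10 ± 0.544), H2-DMa (1.98 ± 0.104), H2-Aa (1.66 ± 0.997), H2-Eb1 (1.43 ± 1.28) and Ciita (1.20 ± 0.0536), and every neighbour overlapped the next. The gene models of Ciita and H2-DMa span 9799 and 8325 bases of transcript, against 1128 to 1669 bases for the other members. This lowers the values of Ciita and H2-DMa per kilobase, so their places in each order depend on the models. The longest coding transcript of H2-DMa in GENCODE M21 has 2005 bases. That length would place H2-DMa higher in each order, so the leading place of Cd74 holds for the table's models only.

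**Figure D1:**
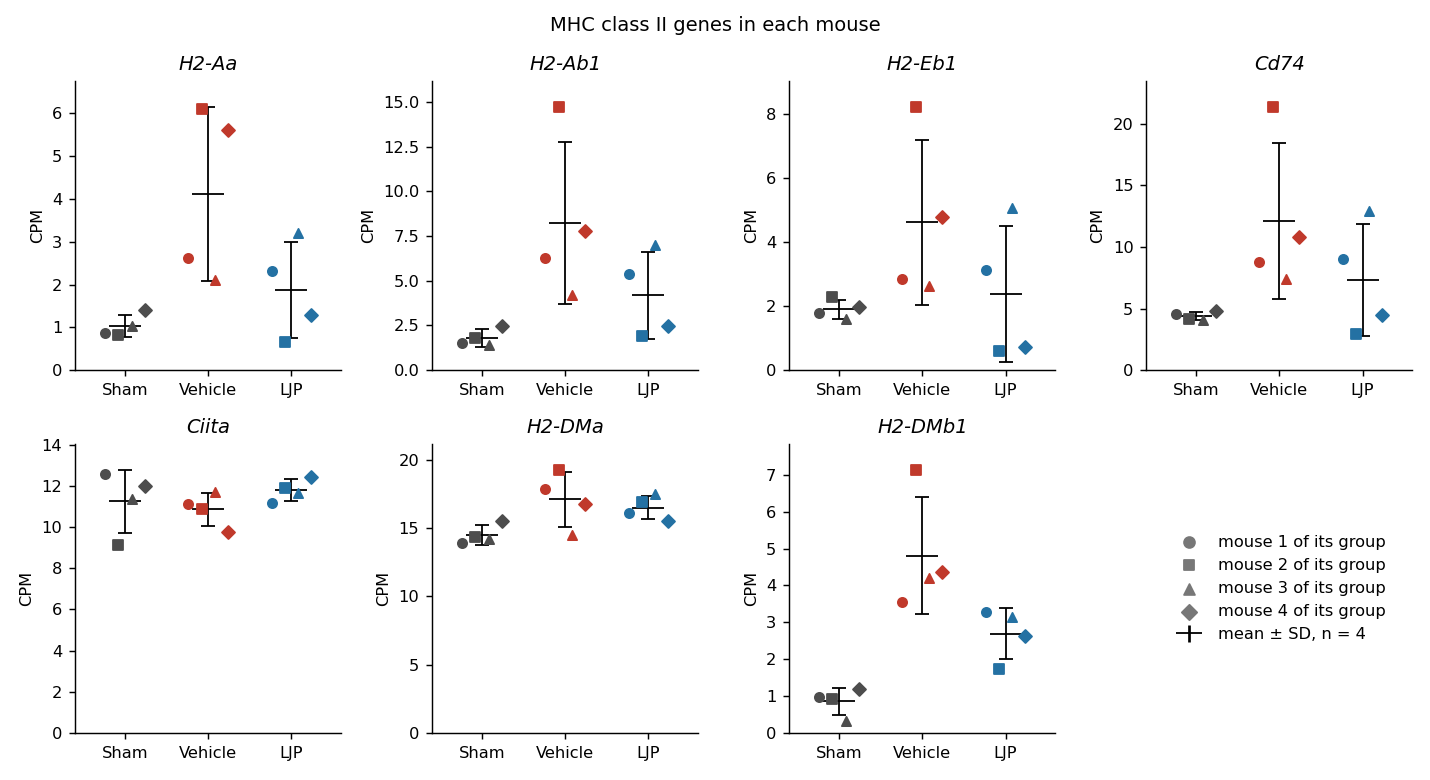
Levels in CPM (vertical axes, from 0) of the 7 genes in each of the 12 mice, with 1 point per mouse and black bars for the mean ± SD of 4 mice. H2-Aa, H2-Ab1, H2-Eb1, Cd74 and H2-DMb1 lie higher in every Vehicle mouse than in any Sham mouse, LJP mice 1 and 3 lie above LJP mice 2 and 4 for these genes, and Ciita and H2-DMa stay within a narrow range.

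The comparison of Vehicle with Sham asks how class II transcripts differed after ischemia and reperfusion. H2-Aa, H2-Ab1, Cd74 and H2-DMb1 rose, between 2.76-fold and 5.58-fold. H2-Eb1, H2-DMa and Ciita did not pass the test. Of the 7 members, 4 were called, all of them higher, while 39.9% of all tested genes were called in either direction and 22.7% were called higher in the Vehicle group. Scaling by library size alone, which shifted the median of all genes by 0.08 on the log2 scale, raised the share of higher genes among all calls from 56.8% to 67.3%. The median log2 fold change of the members was 1.46, beside 3.5e-05 over all tested genes. In 5 of the 7 members the Vehicle and Sham mice did not overlap, against 39.5% of tested genes.

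The I-A chains gave the clearest contrast among the classical genes. H2-Aa, on the minus strand of chromosome 17 from 34282744 to 34287823, had 15, 15, 19 and 27 counts in Sham mice 1 to 4 and 58, 142, 39 and 104 counts in Vehicle mice 1 to 4. Its level was 1.03 ± 0.264 CPM (SD, n = 4) in Sham and 4.11 ± 2.03 in Vehicle. No Vehicle mouse was as low as a Sham mouse, and Vehicle mice 2 and 4 were the highest. The fitted log2 fold change, with its standard error (SE), was 1.99 (SE 0.47, adjusted p = 0.00647 in edgeR). H2-Ab1 (chromosome 17, 34263227 to 34269418) had 26 to 48 counts in Sham mice and 138, 342, 78 and 144 counts in Vehicle mice 1 to 4. It went from 1.80 ± 0.484 CPM (SD, n = 4) to 8.23 ± 4.55, a log2 fold change of 2.19 (SE 0.46, adjusted p = 0.00342 in edgeR). Vehicle mouse 2 stood highest for both chains, and Vehicle mouse 3 lowest.

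The I-E beta chain H2-Eb1 (chromosome 17, 34305867 to 34316674) gave a smaller fold change. It had 31, 42, 29 and 38 counts in Sham mice and 63, 191, 49 and 89 counts in Vehicle mice, so the groups did not overlap here either. Its mean was 1.91 ± 0.297 CPM (SD, n = 4) in Sham and 4.62 ± 2.58 in Vehicle, with a log2 fold change of 1.28 (SE 0.58) that did not pass the test (adjusted p = 0.0938 in edgeR). In a fit of only the Vehicle and Sham mice its adjusted p was 0.0306, and without Vehicle mouse 2 its log2 fold change was 0.83. The alpha chain of I-E, H2-Ea, which C57BL/6 mice are known not to express, had 0 counts in all 12 mice, which allows at most 0.173 CPM.

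Cd74, the invariant chain, had the highest mean per kilobase of the table's gene models in each group, an order that depends on those lengths. It lies on chromosome 18 from 60803849 to 60812652 and had 79, 76, 74 and 92 counts in Sham mice. Vehicle mice 1 to 4 had 193, 496, 138 and 200 counts. Sham mice lay close together, at 4.38 ± 0.339 CPM (SD, n = 4), and Vehicle mice far apart, at 12.1 ± 6.31. The log2 fold change was 1.46 (SE 0.43, adjusted p = 0.0171 in edgeR). This call rested on Vehicle mouse 2, without which the log2 fold change was 1.03 and the adjusted p 0.0520. Leaving out Vehicle mice 1 and 2 together, an alternative chosen after seeing the data, gave 1.05 and an adjusted p of 0.0615.

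The chains of H2-DM gave unlike values. H2-DMb1 (chromosome 17, 34153191 to 34160229) had 17, 17, 6 and 23 counts in Sham mice and 78, 166, 78 and 81 in Vehicle mice. It went from 0.857 ± 0.370 CPM (SD, n = 4) to 4.81 ± 1.59, the steepest of the members' changes, with a log2 fold change of 2.48 (SE 0.36, adjusted p = 0.000463 in edgeR). All 4 Vehicle mice were above all Sham mice. Reads shared with H2-DMb2 may have been assigned to either gene or dropped, since the handling of such reads is not stated. H2-DMb2 itself had 3 to 13 counts in Sham mice and 10 to 22 in Vehicle mice, with a log2 fold change of 0.83 (SE 0.38, adjusted p = 0.102 in edgeR).

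H2-DMa had 241, 263, 259 and 300 counts in Sham mice and 394, 448, 269 and 311 in Vehicle mice, so the groups overlapped. Its level was 14.5 ± 0.726 CPM (SD, n = 4) in Sham and 17.1 ± 2.02 in Vehicle, a log2 fold change of 0.24 (SE 0.10, adjusted p = 0.0777 in edgeR). It passed the threshold with scaling by library size only (log2 fold change 0.32, adjusted p = 0.0343) and without Vehicle mouse 3 (0.31, adjusted p = 0.0209). Its log2 fold change was 0.10 (adjusted p = 0.526) without Vehicle mice 1 and 2. The table's model of H2-DMa, chromosome 17 from 34119693 to 34139101 on the plus strand, overlaps 3122 bases of Brd2 on the minus strand. Brd2, a chromatin reader of the bromodomain family, had 4154 to 4783 counts in Sham mice and 4980 to 7646 in Vehicle mice and rose by 0.31 on the log2 scale (SE 0.08, adjusted p = 0.0108 in edgeR). The strand setting of the counting is not given in the sources used here, so reads of this stretch cannot be assigned to either gene.

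Ciita, the coactivator, showed no detectable change. Its counts were 218, 167, 207 and 231 in Sham mice and 245, 253, 217 and 181 in Vehicle mice. The level was 11.2 ± 1.52 CPM (SD, n = 4) in Sham and 10.9 ± 0.809 in Vehicle, with a log2 fold change of -0.05 (SE 0.12, adjusted p = 0.751 in edgeR). The sign of so small a difference changed with scaling by library size only (0.03) and without Sham mouse 1 (0.01). The Ciita model, chromosome 16 from 10480014 to 10531064 on the plus strand, overlaps Dexi and the uncharacterized gene LOC115488669, both on the minus strand. Dexi had 804 to 1383 counts over the 12 mice, with 49.8 ± 2.77 CPM (SD, n = 4) in Sham and 56.4 ± 5.53 in Vehicle. LOC115488669 had 53 to 62 counts in Sham mice and 13 to 39 in Vehicle mice and fell by 1.17 on the log2 scale (SE 0.34, adjusted p = 0.0171 in edgeR). Without the strand setting, Ciita reads cannot be separated from those of its antisense partners, and the part of these genes in the Ciita value was not tested.

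**Figure D2:**
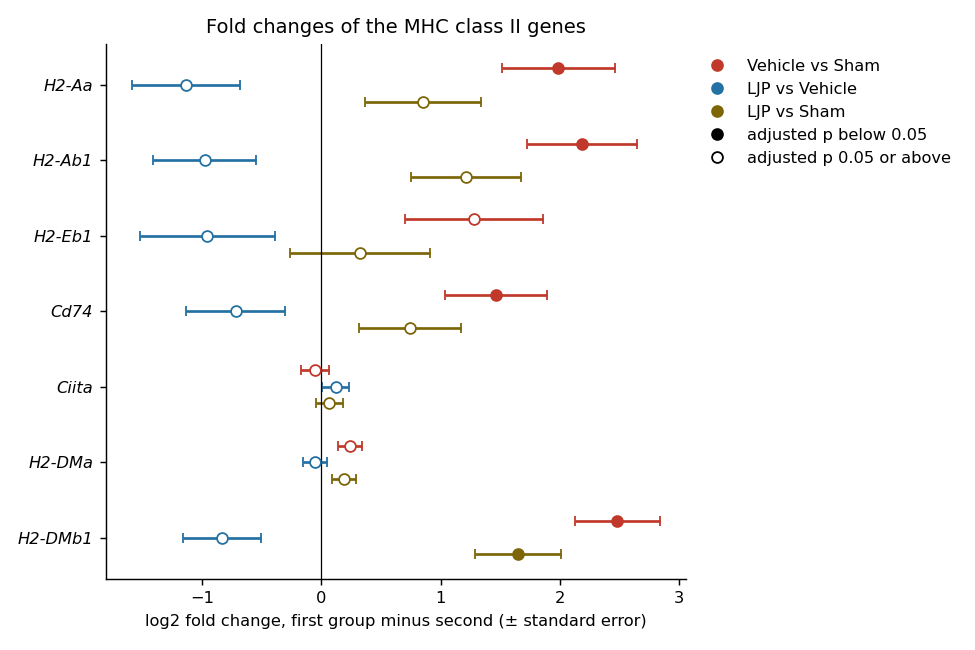
Log2 fold changes (horizontal axis) of the 7 genes with their standard errors in the 3 comparisons, with filled points where the edgeR adjusted p was below 0.05. Filled points are H2-Aa, H2-Ab1, Cd74 and H2-DMb1 in Vehicle against Sham and H2-DMb1 in LJP against Sham, and no point of LJP against Vehicle is filled.

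LJP was compared with Vehicle to ask whether treatment altered these transcripts after ischemia. No member passed the test. For 6 of the 7 members the LJP mean lay below the Vehicle mean on the fitted log2 scale, and Ciita was the exception. Over all tested genes edgeR called 0.0228% at an adjusted p below 0.05, so few genes of any kind were called. At an unadjusted p below 0.05, 3 of the 7 members (H2-Aa, H2-Ab1 and H2-DMb1) and 29.7% of tested genes passed. DESeq2 called 0 of the 7, while it called 13.2% of all genes to which it gave an adjusted p. The median log2 fold change of the members was -0.83, beside -0.002 over all tested genes.

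LJP mice differed widely from each other. H2-Aa had 51, 13, 59 and 23 counts in LJP mice 1 to 4, or 0.665 to 3.21 CPM, with a log2 fold change against Vehicle of -1.14 (SE 0.45, adjusted p = 0.126 in edgeR). H2-Ab1 had 118, 37, 129 and 44 counts, or 4.18 ± 2.43 CPM, with a log2 fold change of -0.98 (SE 0.43, adjusted p = 0.155 in edgeR). Cd74 had 199, 57, 238 and 80 counts, or 7.34 ± 4.55 CPM, with a log2 fold change of -0.72 (SE 0.42, adjusted p = 0.253 in edgeR). For each of these genes LJP mice 1 and 3 lay within the range of Vehicle mice, whereas LJP mice 2 and 4 lay below every Vehicle mouse.

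H2-Eb1 showed this spread most clearly. LJP mice 1 to 4 had 69, 12, 93 and 13 counts, which is 3.13, 0.614, 5.06 and 0.725 CPM. LJP mice 2 and 4 were below every Sham mouse, whose lowest was 1.59 CPM, and the highest LJP value was 8.24 times the lowest. The log2 fold change against Vehicle was -0.96 (SE 0.57, adjusted p = 0.264 in edgeR).

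H2-DMb1 was the member whose LJP and Vehicle mice did not overlap, a pattern seen in 11.7% of tested genes. Its counts were 72, 34, 58 and 47 in LJP mice, with 1.74 to 3.27 CPM in LJP against 3.54 to 7.13 CPM in Vehicle. The log2 fold change was -0.83 (SE 0.33, adjusted p = 0.121 in edgeR). H2-DMa, at 355, 331, 321 and 278 counts, differed from Vehicle by -0.05 (SE 0.10, adjusted p = 0.747 in edgeR). Ciita, at 246, 233, 214 and 223 counts, differed by 0.12 (SE 0.12, adjusted p = 0.502 in edgeR). The LJP range of both genes overlapped that of the Vehicle mice.

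One library decided a call in this comparison. Without Vehicle mouse 3, the lowest Vehicle mouse for H2-Aa, H2-Aa passed the threshold with a log2 fold change of -1.34 (adjusted p = 0.0486), and 1 of the 7 members was then called. No other member was called under any of the alternatives, the removal of each other mouse included. Single mice moved the sizes of the differences, and without Vehicle mouse 2 the log2 fold changes of H2-Ab1, H2-Eb1 and Cd74 were -0.54, -0.52 and -0.29. Without LJP mouse 3 they were -1.34, -1.61 and -1.14. Without LJP mouse 2, Cd74 and H2-Eb1 stood at -0.45 and -0.64.

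LJP was then compared with Sham, to see what remained of the difference after treatment. H2-DMb1 was the one member called, with 2.70 ± 0.698 CPM (SD, n = 4) in LJP against 0.857 ± 0.370 in Sham and a log2 fold change of 1.65 (SE 0.36, adjusted p = 0.0205 in edgeR). Over all tested genes 4.75% were called in either direction and 3.85% were called higher in LJP. H2-DMb1 was also the one member whose LJP and Sham mice did not overlap, against 24.9% of tested genes. The call was lost without Sham mouse 1 (adjusted p = 0.0584), Sham mouse 2 (0.0631), LJP mouse 1 (0.0637) or LJP mouse 3 (0.0699), with log2 fold changes from 1.54 to 1.72. It was also lost when the replicate number was fitted as a block.

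Of the other members, H2-Aa, H2-Ab1, H2-Eb1, Cd74 and H2-DMa had mean CPM in LJP between the Sham and Vehicle means and did not pass the test against Sham. H2-Ab1 had a log2 fold change of 1.21 (SE 0.46, adjusted p = 0.173 in edgeR), and it passed the threshold in a fit of only the LJP and Sham mice (1.20, adjusted p = 0.0312). H2-Aa stood at 0.85 (SE 0.48, adjusted p = 0.377 in edgeR), and Cd74 stood at 0.74 (SE 0.43, adjusted p = 0.384 in edgeR). Without LJP mouse 3 these became 0.47 and 0.33. H2-Eb1 stood at 0.32 (SE 0.59), and this value became -0.34 without LJP mouse 3. As a difference of mean log2 CPM it was -0.17 with all mice, so on that scale H2-Eb1 was lower in LJP than in Sham by a difference within the spread of the mice. H2-DMa and Ciita stood at 0.19 (SE 0.10) and 0.07 (SE 0.12). LJP against Vehicle and LJP against Sham share the LJP mice, and Vehicle against Sham shares mice with both.

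Ratios between members, taken within each mouse as differences of log2 CPM, show which transcripts kept step. They are not scaled by length, so they are read between groups and not as an order of the genes. The log2 CPM of H2-Ab1 minus that of H2-Aa was 0.74 ± 0.26 (SD, n = 4) in Sham, 0.98 ± 0.37 in Vehicle and 1.14 ± 0.20 in LJP, and the ranges of the groups overlapped. This log2 difference stayed between 0.42 and 1.38 over all mice. H2-Eb1 did not keep step with H2-Ab1. Its log2 difference from H2-Ab1 was 0.10 ± 0.29 in Sham, -0.82 ± 0.21 in Vehicle and -1.08 ± 0.56 in LJP, and Sham and Vehicle mice did not overlap. H2-Ab1 relative to Cd74 went from -1.26 ± 0.29 in Sham to -0.57 ± 0.16 in Vehicle, again without overlap. Within H2-DM, the log2 CPM of H2-DMa minus that of H2-DMb1 was 4.04 ± 0.68 in Sham, 1.85 ± 0.37 in Vehicle and 2.61 ± 0.42 in LJP. Per kilobase of the table's gene models, as above, the mean of H2-DMb1 was the higher one in Vehicle and LJP. That order depends on model lengths of 8325 bases for H2-DMa and 1284 for H2-DMb1, so it does not settle which chain was more abundant.

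Some of the members also varied together among mice of a group. After the group mean was subtracted from each gene, Pearson's r over the 12 mice lay between 0.88 and 0.96 for the 6 pairs formed by H2-Aa, H2-Ab1, H2-Eb1 and Cd74. For the 4 pairs of these genes with H2-DMb1 it lay between 0.53 and 0.67. H2-DMa gave 0.45 to 0.67 with the same genes and 0.31 with H2-DMb1, and for the 6 pairs with Ciita r lay between -0.34 and -0.05. These values describe the 12 libraries, in which all genes share depth and tissue makeup. Genes most like the members were sought by Pearson's r between a gene's log2 CPM and the mean of the members' standardised log2 CPM over the 12 mice. The 10 highest were Nfe2l2 (0.974), Arhgap11a (0.973), Agpat2 (0.968), Scpep1 (0.968), Tnfsf12 (0.968), Oat (0.966), Parp9 (0.966), Gm44805 (0.965), Ifi27 (0.963) and Gpr137b (0.958), with Spearman's rho from 0.881 to 0.951. With group means subtracted, the 10 highest were Cat (0.962), Agpat2 (0.959), Cebpa (0.946), Loxl2 (0.946), Oat (0.945), Naip6 (0.943), Arhgap11a (0.941), Angptl2 (0.939), Tnfsf12 (0.937) and Lyn (0.937), with rho from 0.853 to 0.965. Agpat2, Arhgap11a, Oat and Tnfsf12 stood in both lists.

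The other genes of the pathway were grouped by role. Of 46 listed genes in the table, 39 were tested, and 21 of these were higher and 2 lower in Vehicle than in Sham, beside 22.7% higher and 39.9% called in either direction over all tested genes. Their median log2 fold change was 0.83. LJP against Vehicle gave 0 calls by edgeR among the 39, with 13 at an unadjusted p below 0.05, which 29.7% of all tested genes passed, and a median of -0.23. DESeq2 called 9 of the 40 listed genes to which it gave an adjusted p, 1 higher and 8 lower, beside 13.2% of all such genes. The edgeR count was also moved by single mice, with 10 calls without Vehicle mouse 3 and 7 without Vehicle mouse 4. LJP against Sham gave 12 genes higher and 1 lower, with a median of 0.52, beside 3.85% higher and 4.75% called over all tested genes. The number called there was 8 without Sham mouse 1, 2 or 3 and 7 without LJP mouse 3.

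Proteases and the thiol reductase that prepare class II peptides were higher after ischemia. Of 8 genes in the list, 7 were higher in Vehicle than in Sham (22.7% of all tested genes), and the same count of 7 was higher in LJP than in Sham (3.85% of all tested genes). Ifi30, the lysosomal thiol reductase GILT, was at 1.67 ± 0.518 CPM (SD, n = 4) in Sham, 29.8 ± 11.9 in Vehicle and 17.8 ± 9.43 in LJP. Its log2 fold change was 4.15 (SE 0.43, adjusted p = 9.61e-05 in edgeR) in Vehicle against Sham. Ctsz, a carboxypeptidase of lysosomes, rose by 2.32 (SE 0.27) and Lgmn, an asparaginyl endopeptidase, by 2.05 (SE 0.26) on the log2 scale. Ctsz was at 40.2 ± 3.82, 201 ± 52.8 and 153 ± 63.0 CPM in Sham, Vehicle and LJP, and Lgmn at 99.6 ± 4.12, 412 ± 147 and 290 ± 106 CPM. Ctss, which trims the invariant chain in myeloid cells, rose by 1.81 (SE 0.26, adjusted p = 0.000424 in edgeR). Cst3, an inhibitor of cysteine proteases, was the gene of the group that was not called, at 0.15 (SE 0.08).

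Genes of the interferon gamma route to Ciita were higher in part. Of 8 tested genes, 5 were higher in Vehicle than in Sham (22.7% of all tested genes) and 1 was higher in LJP than in Sham (3.85% of all). Interferon gamma itself, Ifng, had 0 counts in every Sham and LJP mouse and at most 3 counts in a Vehicle mouse. Irf8, a transcription factor of myeloid cells, rose from 8.38 ± 0.481 to 32.6 ± 7.14 CPM (SD, n = 4), a log2 fold change of 1.96 (SE 0.25, adjusted p = 0.000235 in edgeR), and had 307 to 772 counts in LJP mice. Irf1, a factor induced by interferon, rose by 1.88 (SE 0.30, adjusted p = 0.000825 in edgeR), and Ifngr1, a receptor chain, by 1.24 (SE 0.23, adjusted p = 0.00174 in edgeR). Irf1 was at 16.6 ± 6.69 CPM in Vehicle and 7.77 ± 1.99 in LJP, a log2 fold change of -1.09 that did not pass the test (SE 0.29, adjusted p = 0.0678 in edgeR). Ifngr2, Jak1 and Jak2 were not called in any comparison.

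Among 8 listed regulators, of which 7 act on class II promoters and Nlrc5 on MHC class I genes, 2 were higher and 1 lower in Vehicle than in Sham, shares near those over all tested genes (22.7% higher and 39.9% called in either direction). Nlrc5, a relative of Ciita, rose from 1.03 ± 0.414 to 6.58 ± 3.57 CPM (SD, n = 4), a log2 fold change of 2.67 (SE 0.45, adjusted p = 0.00112 in edgeR). Rfxank, a subunit of the RFX complex on the X box, rose by 0.43 (SE 0.09, adjusted p = 0.00386 in edgeR). Creb1, which binds the second part of the X box, fell by 0.35 on the log2 scale (SE 0.09, adjusted p = 0.0103 in edgeR). The other RFX subunits Rfx5 and Rfxap stood at 0.01 (SE 0.12) and -0.04 (SE 0.09), and the NF-Y subunits Nfya, Nfyb and Nfyc were not called.

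Co-stimulatory and co-inhibitory genes act beside class II at the contact with T cells, and 5 of 6 tested genes were higher in Vehicle than in Sham, beside 22.7% of all tested genes. Cd86, a ligand of CD28, rose from 1.19 ± 0.342 to 4.88 ± 1.81 CPM (SD, n = 4), a log2 fold change of 2.03 (SE 0.37, adjusted p = 0.00172 in edgeR). Icosl, the ligand of ICOS, rose by 1.63 (SE 0.33, adjusted p = 0.00269 in edgeR) and Cd83, a marker of activated antigen-presenting cells, by 0.53 (SE 0.13, adjusted p = 0.00872 in edgeR). Cd86 and Cd83 were also higher in LJP than in Sham, by 1.58 (SE 0.38, adjusted p = 0.0316 in edgeR) and 0.52 (SE 0.13, adjusted p = 0.0434 in edgeR). Cd80, the other ligand of CD28, stood at 0.47 (SE 0.39) in Vehicle against Sham.

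Ligands and receptors of class II molecules and CD74 went both ways. Cd44, which signals together with CD74, rose from 1.76 ± 0.331 to 49.6 ± 21.6 CPM (SD, n = 4), a log2 fold change of 4.82 (SE 0.39, adjusted p = 4.62e-05 in edgeR), and Cxcr4, a chemokine receptor that can pair with CD74, rose by 3.21 (SE 0.56, adjusted p = 0.00135 in edgeR). Cxcr4 was at 0.692 to 1.14 CPM in Sham mice and at 13.3, 12.3, 2.58 and 3.77 CPM in Vehicle mice 1 to 4, so Vehicle mice 1 and 2 were highest and the groups did not overlap. Mif, a ligand of CD74, was not called, at 0.16 (SE 0.07). Cd4, the co-receptor that T helper cells use for class II, had 367 to 464 counts in Sham mice, 43 to 104 in Vehicle mice and 115 to 267 in LJP mice. It fell by 2.54 on the log2 scale (SE 0.30, adjusted p = 0.00015 in edgeR) in Vehicle and by 1.39 (SE 0.28, adjusted p = 0.0129 in edgeR) in LJP against Sham. Cd3e, a defining T cell gene, had at most 13 counts in any mouse.

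Among the remaining class II chains, H2-DMb2 and H2-Ob were tested and not called, and H2-Ea, H2-Eb2 and H2-Oa had too few counts to be tested. H2-Eb2 had at most 3 counts in a mouse, and H2-Oa and H2-Ob, the chains of the H2-DM inhibitor H2-O, had 2 to 21 and 0 to 21 counts. H2-Ob stood at 0.69 (SE 0.77) in Vehicle against Sham. The ligases that remove class II from the surface, Marchf1 and Marchf8, were not called and stood at -0.27 (SE 0.11) and 0.14 (SE 0.08).

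**Figure D3:**
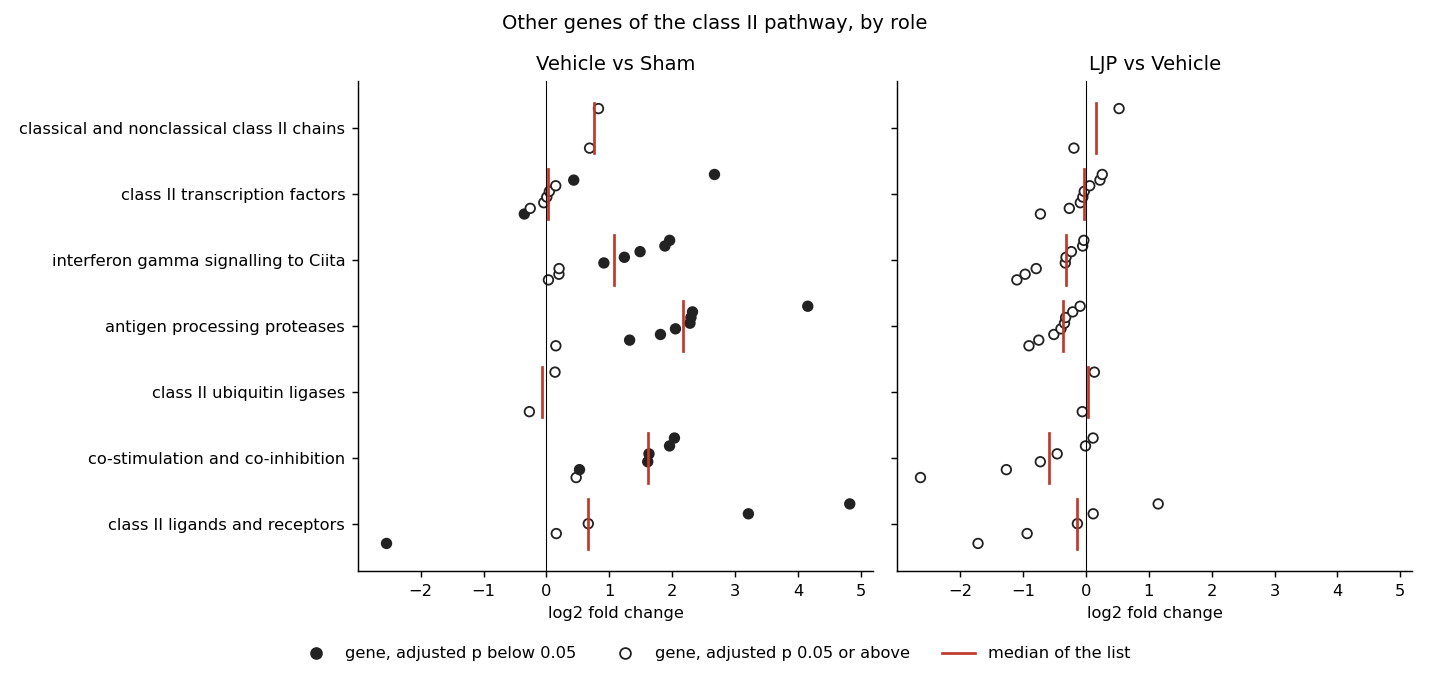
Log2 fold changes (horizontal axes) of the 39 tested pathway genes by role in Vehicle against Sham (left) and LJP against Vehicle (right), with filled points where the edgeR adjusted p was below 0.05 and a red line at the median of each list. Filled points number 23 on the left, 7 of them in the protease list, and 0 on the right.

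Marker lists of the cell types a hemisphere can hold were read beside these results. Of 10 microglia genes, 7 were higher in Vehicle than in Sham (22.7% of all tested genes). Their summed levels were 327 to 332 CPM in Sham, 447 to 931 in Vehicle and 559 to 966 in LJP. All 10 genes of border macrophages were higher in Vehicle than in Sham (22.7% of all tested genes). The sums of this list were 38.5 to 39.9 CPM in Sham, 232 to 557 in Vehicle and 97.4 to 268 in LJP. Stab1 held most of them, at 24.4 ± 1.72, 212 ± 79.4 and 127 ± 68.1 CPM (SD, n = 4). All 7 tested genes of monocytes and infiltrating macrophages were higher in Vehicle than in Sham (22.7% of all tested genes). The sums of the list were 103 to 105 CPM in Sham, 307 to 1450 in Vehicle and 161 to 376 in LJP. Fn1 held most of these sums, at 85.2 ± 1.33, 510 ± 406 and 157 ± 62.1 CPM (SD, n = 4). No tested gene of these lists was called between LJP and Vehicle by edgeR. At an unadjusted p below 0.05, 7 of 10 border macrophage genes (median log2 fold change -1.50) and 5 of 7 monocyte genes (-1.66) passed, against 0 of 10 microglia genes (0.03) and 29.7% of all tested genes. Vehicle mouse 2 was the highest mouse for H2-Aa, H2-Ab1, H2-Eb1, Cd74, H2-DMa and H2-DMb1. It was also the highest of all mice for the border macrophage, monocyte, endothelial (1367 CPM) and meningeal fibroblast (1090 CPM) lists. In the endothelial and fibroblast lists, 5 of 6 and 5 of 8 genes were higher in Vehicle than in Sham, beside 22.7% of all tested genes. LJP mice 1 and 3 exceeded LJP mice 2 and 4 in the microglia list (966 and 953 against 559 and 574 CPM) and in the border macrophage list (167 and 268 against 103 and 97.4 CPM). The part of these cells in the class II values was not tested.

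The remaining lists differed in how they moved. Of 5 tested dendritic cell genes, Itgax alone was higher in Vehicle than in Sham, a share near the 22.7% of all tested genes. Itgax, an integrin chain that activated microglia and macrophages also make, had 3 to 9 counts in Sham mice, 37 to 116 in Vehicle mice and 12 to 68 in LJP mice, with a log2 fold change of 3.45 (SE 0.59, adjusted p = 0.00113 in edgeR) in Vehicle against Sham. The sum of the list stayed at 16.8 to 25.0 CPM over all mice, most of it Zbtb46 and Flt3, and Clec9a and Xcr1 had at most 12 and 4 counts. The B cell list summed to 21.4 to 27.2 CPM in Sham and 6.13 to 29.0 in Vehicle, most of it Ighm, which was not called (-0.78, SE 0.47). Cd79b, a chain of the B cell receptor and the other tested gene of the list, rose from 0.162 ± 0.171 to 0.725 ± 0.148 CPM (SD, n = 4), with 0 to 7 counts in Sham mice and 12 to 21 in Vehicle mice (log2 fold change 2.11, SE 0.64, adjusted p = 0.0211 in edgeR). The defining gene Ms4a1 had at most 1 count in any mouse. The T cell list summed to 23.8 to 29.9 CPM in Sham and 8.68 to 13.2 in Vehicle, without overlap, and Cd4 held 22.3 ± 2.56 and 3.84 ± 1.63 CPM (SD, n = 4) of it. No neutrophil gene was tested, since none held enough counts in enough mice. Cxcr2 had 408, 146, 1 and 9 counts in Vehicle mice 1 to 4. The neutrophil list summed to 0.259 to 0.438 CPM in Sham mice and to 0.256 to 1.17 in LJP mice. In Vehicle mice 1 to 4 it summed to 166, 40.5, 0.754 and 5.60. Every Vehicle mouse was above every Sham mouse for this list, and Vehicle mice 1 and 2 were far above the rest. Astrocyte genes, which mark the tissue as brain, summed to 3468 to 5478 CPM. Choroid plexus genes ranged from 12.5 to 880 CPM within and across groups, and none of that list was called. Airway and lung epithelium genes summed to 10.2 to 14.8 CPM in Sham and Vehicle and to 0.818 to 2.77 in LJP. Of 6 tested genes of that list, Scgb1a1, Sftpa1 and Sftpb were lower in LJP than in Vehicle, and they were 3 of the 4 genes called in that comparison over all tested genes. Scgb1a1 had 79 to 123 counts in Vehicle mice and 0 in every LJP mouse. The part of this difference in the class II values was not tested.

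Set against the mean log2 CPM of the microglia list, class II genes were not uniformly shifted. From Sham to Vehicle the log2 difference changed by 1.54 for H2-DMb1, 1.14 for H2-Ab1, 0.90 for H2-Aa, 0.44 for Cd74 and 0.22 for H2-Eb1. It changed by -0.65 for H2-DMa and -0.92 for Ciita, and Sham and Vehicle mice overlapped for all of these but H2-DMb1. The mean of that list was 4.35 ± 0.03 (SD, n = 4) in Sham, 5.23 ± 0.63 in Vehicle and 5.39 ± 0.42 in LJP. H2-Ab1 lay below it by a log2 difference of -3.45 ± 0.37 in Sham, -2.32 ± 0.96 in Vehicle and -3.48 ± 0.50 in LJP, and the ranges overlapped. H2-DMb1 lay at -4.52 ± 0.74, -2.98 ± 0.60 and -3.94 ± 0.20. Its Vehicle mice lay above all Sham and all LJP mice on this scale, and Sham and LJP mice overlapped. Vehicle mouse 1 had a microglia mean of 4.31, like Sham mice, although its summed CPM of the list (447) was above theirs, together with an H2-Ab1 level above all of them. Against the border macrophage list, whose mean was 0.64 ± 0.11 in Sham, 3.16 ± 0.91 in Vehicle and 1.90 ± 0.55 in LJP, H2-Ab1 differed by 0.26 ± 0.41, -0.25 ± 0.33 and 0.01 ± 0.37, and the 3 groups overlapped. H2-DMb1 differed from it by -0.81 ± 0.78, -0.91 ± 0.57 and -0.45 ± 0.38, with overlap between Vehicle and each other group. Cd74 relative to that list went from 1.52 ± 0.16 in Sham to 0.32 ± 0.31 in Vehicle, without overlap. Against the mean of both lists joined, H2-DMb1 lay at -2.66 ± 0.76 in Sham, -1.95 ± 0.15 in Vehicle and -2.20 ± 0.26 in LJP. Its Vehicle mice were above all Sham mice but overlapped the LJP mice. From Sham to Vehicle, H2-Eb1, H2-DMa and Ciita moved the other way on this scale (-0.60, -1.47 and -1.74), also without overlap. H2-Aa, H2-Ab1 and Cd74 changed by 0.08, 0.31 and -0.38, with overlap.

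**Figure D4:**
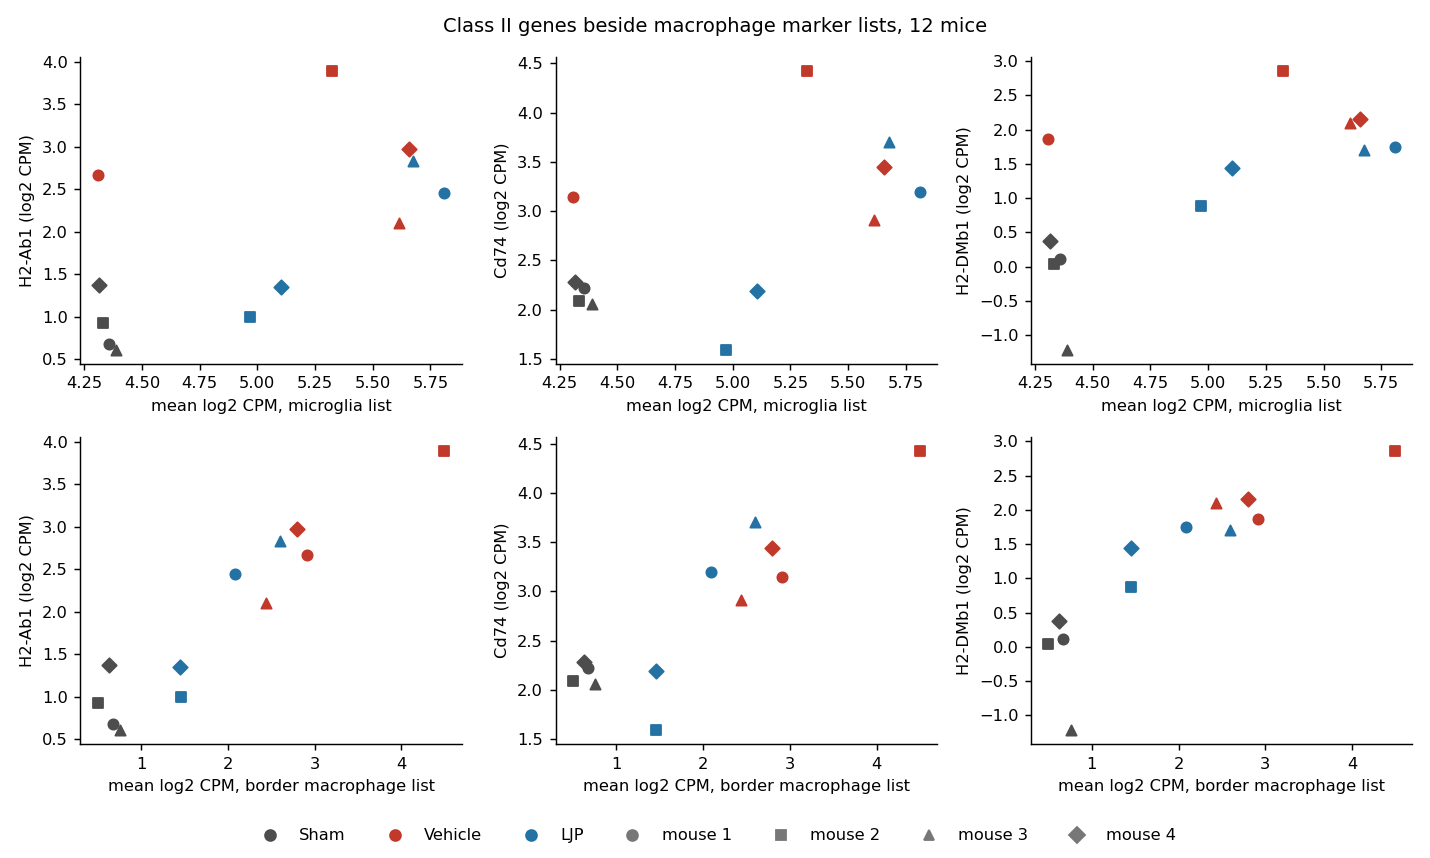
Log2 CPM of H2-Ab1, Cd74 and H2-DMb1 (vertical axes) against the mean log2 CPM of the microglia list (upper row) and of the border macrophage list (lower row), with 1 point per mouse coloured by group. Vehicle mouse 1 sits at a microglia mean of 4.31 beside the Sham mice but above them in all 3 genes, and Vehicle mouse 2 is highest for both the genes and the border macrophage list.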

How the data were processed

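Poly(A) RNA of 12 hemispheres, 4 per group, was sequenced as paired-end reads. The authors deposited raw counts of reads per gene, without normalization, in a table whose length column was used for values per kilobase. The submitters' processing notes name featureCounts, DESeq2 and the builds GRCm39 and mm10. Positions of 39730 of 39756 genes equal those of GRCm38.p6. The aligner, the strand setting and the handling of shared reads are not given in the sources used here. Groups came from the sample labels, which do not say more of the replicates than their number. The tests weigh differences between groups against the spread between libraries, each taken as a separate mouse.

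The analysis used edgeR 4.0.16 under R 4.3.3 (filterByExpr, TMM, quasi-likelihood test on all 12 mice), with Benjamini-Hochberg adjustment over 17558 genes and a threshold of 0.05. The standard error is the log2 fold change divided by the root of the F statistic. Log2 CPM used a prior count of 2. Alternatives were DESeq2 1.42.0, RLE or library size scaling, no filter, a fit of 2 groups, the replicate number as a block, the thresholds of the study's methods, a prior count of 0.5 and leaving out each mouse. The test was tried on simulated counts with known changes. No pair of libraries within a group agreed to within sampling noise (chi-square per degree of freedom at least 2.56).

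The members, gene lists and tests were chosen with earlier results of these data known. The text names all 7 members, up to 3 called genes with the smallest p-values per role of the pathway and comparison with values for others, the 10 genes most like the members by each of 2 measures, and marker lists. Depth and floors cover counting error only. Some values of single listed genes are not reported here.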

Additional observations from a re-analysis of the deposited data

Results flagged for a closer look

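Among 135 groups of 4 mice (45 of the 46 tested members and pathway genes, each in 3 groups), 8 held a mouse whose gap to its nearest neighbour, divided by the group's range of CPM, was above Dixon's critical value for 4 samples. Chance gives about 1 in 20 groups, or 6.75 here, and none of the 8 concerned a member. In the Sham group, mouse 4 was low for Rfx5 (gap ratio 0.872), mouse 3 was high for Rfxank (0.875) and mouse 2 was high for Marchf8 (0.864). In the Vehicle group, mouse 1 was low for H2-Ob (0.839, with 1 count) and high for Nfyb (0.885) and Nfyc (0.939), and mouse 2 was high for Jak2 (0.878). In the LJP group, mouse 2 was low for Marchf1 (0.919).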

How the results depend on the processing

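Of 399 member fold changes under the alternatives, 380 kept their direction and their side of the threshold, 7 lost the call, 6 gained one and 6 changed sign, and all 21 differences of mean log2 CPM kept their sign at a prior count of 0.5. Signs changed for values near 0 or with wide errors. Ciita in Vehicle against Sham became 0.027 with library size only, and between -0.14 and 0.0061 without single mice (0.0061 without Sham mouse 1). Ciita in LJP against Sham lay between -0.022 and 0.13 without single mice (-0.022 without Sham mouse 2). H2-DMa in LJP against Vehicle became 0.077 without Vehicle mice 1 and 2, and lay between -0.12 and 0.010 without single mice (0.010 without Vehicle mouse 2). H2-Eb1 in LJP against Sham lay between -0.34 and 0.64 without single mice (-0.34 without LJP mouse 3).

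Members called in Vehicle against Sham numbered 4 and ranged from 3 to 5 when single mice were left out. In LJP against Vehicle they numbered 0, and 0 to 1 without single mice (1 without Vehicle mouse 3). In LJP against Sham the count of 1 became 2 in a fit of only the 2 groups compared and 2 without Vehicle mice 1 and 2 (chosen after seeing the data), and 0 to 1 without single mice (0 without Sham mouse 1, Sham mouse 2, LJP mouse 1 or LJP mouse 3). Pathway genes called in LJP against Vehicle, 0 by edgeR, numbered 9 with DESeq2, 4 when low counts were not filtered, 7 at the thresholds of the study's methods, and 0 to 10 without single mice. Those called in LJP against Sham, 13, ranged from 7 to 15 without single mice. The cause of these changes was not tested.

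Deviations from the group means gave r between -0.32 and 0.11 for same-numbered mice over the 3 comparisons. Mice of unlike number gave r between -0.25 and 0.40. With 4 mice per group these ranges cannot show or exclude a link by replicate number, and the main fit used no pairing. With the replicate number as a block, the member called in LJP against Sham was lost, giving 0 (H2-DMb1 1.69, adjusted p = 0.0632), and 4 members were called in Vehicle against Sham. Depth limits what can be said of genes such as H2-Ea, H2-Eb2 and Ifng, which had 0 to 3 counts per mouse.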
